A study of Homo sapiens with 38 samples.

Results

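The comparison concerns ORMDL3 knockdown after 10 h of interleukin 1 beta (IL1B) in A549 cells, an established line from a human lung adenocarcinoma that is used as a model of the alveolar epithelium. Its members are the 4 knockdown and the 4 control arrays that the labels place at 10 h, 8 of the 38 arrays of the series, and every one of the 14488 probe sets of the expression table was compared between them. In the knockdown arm ORMDL3 was silenced for 48 h with a pool of siRNAs, and the control arm is labelled only as control, and the sources used here do not say what those cells received. Both arms then spent 24 h without serum and received 1 ng/ml IL1B for 10 h. The rest of the series holds the same arms at 0 h, which were untreated, and at 2, 4 and 8 h, with 4 arrays a group except 3 for knockdown 0 h and 3 for control 8 h. Nothing in the labels says whether the replicates came from separate cultures, so a p-value here reflects the spread among these samples alone, and that spread may be technical.

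ORMDL3 sits in the membrane of the endoplasmic reticulum and, with its paralogs ORMDL1 and ORMDL2, holds back serine palmitoyltransferase, the enzyme that starts the synthesis of sphingolipids. IL1B acts through its receptor and the kinases of the IRAK family on NF-kB, a set of transcription factors that switches on cytokines, chemokines and adhesion molecules in epithelial cells within hours. Some of those genes are transient, and by the later hours secondary programmes such as interferon-stimulated genes join them.

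At 10 h ORMDL3 stood at log2 levels of 7.54, 7.77, 7.64 and 7.55 in control replicates 1, 2, 3 and 4 and at 5.23, 5.24, 5.32 and 5.33 in the knockdown replicates. The arms did not overlap, and the knockdown arrays lay close together. The mean was 5.28 ± 0.05 (SD, n = 4) against 7.63 ± 0.11 (SD, n = 4), which is 19.6% of the control level (exact two-sided permutation p = 0.0286, the smallest that 4 against 4 allows). The series gives no signal over background, so this compares array levels rather than the share of transcript left, and in bulk RNA fewer cells with a transcript and less transcript per cell cannot be told apart. ORMDL1 differed by -0.21 ± 0.09 (SE; limma adjusted p = 0.264) and ORMDL2 by -0.14 ± 0.06 (adjusted p = 0.313), and neither passed the test.

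Lower in knockdown at 10 h were ICAM1, a gene of leukocyte adhesion, the hyaluronan-binding TNFAIP6 and the stress genes NUPR1, CHAC1 and HMOX1. SGPP1, a phosphatase of sphingosine 1-phosphate, was lower as well. So was CXCL10, a gene of leukocyte recruitment, but its arms overlapped and its call was lost without some single arrays. Higher were the integrin gene ITGB4, the keratin gene KRT19, the sphingomyelin synthase SGMS2, the tryptophan dioxygenase TDO2 and the potassium channel KCNN4. Apart from ORMDL3 itself the differences were modest. A probe set is called here when its limma p is under 0.05 after Benjamini-Hochberg adjustment over the 14488. Called were 330 probe sets (2.28%), 158 of them higher (1.09%) and 172 lower (1.19%), against a median difference of -0.0052 over all probe sets. The median size of a called difference was 0.37 on the log2 scale, and 20 were higher and 17 lower by more than 1.5-fold. Of the 330, 301 carried 1 gene symbol and stood for 299 genes.

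Arrays within an arm correlated at 0.9866 to 0.9953 over all probe sets and arrays of different arms at 0.9863 to 0.9932. The array medians lay between 8.12 and 8.17. The count of calls moved with single arrays: it was 155 without control replicate 1, 134 without control replicate 3, 215 without control replicate 4, 179 without knockdown replicate 1 and 135 without knockdown replicate 4. It was 361 and 225 without replicate 2 of control and of knockdown, and 319 without knockdown replicate 3. In each of these 8 fits 91 probe sets were called, 48 higher and 43 lower. The levels of the 4 arrays of each arm did not overlap for 295 of the 330 called probe sets, and over all probe sets 520 (3.59%) were higher and 582 (4.02%) lower without overlap. A fit to the 8 arrays at 10 h alone, with fewer degrees of freedom, called 55 probe sets.

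Of 77 named genes called at 10 h, 26 kept their call in every alternative fit that gave a value at the same threshold. These 12 lower genes were ORMDL3, ICAM1, TNFAIP6, NUPR1, DIPK2A, CARNMT1, SGPP1, TP53INP1, HMOX1, CHAC1, PLA2G15 and TRPC1. The 14 higher genes were TDO2, KLHL4, ITGB4, KCNN4, HMGA2, GALNT5, ANKRD1, KRT19, GABRA5, ANKRD29, NT5E, HPGD, SGMS2 and FAS. Leaving out all arrays numbered 4, an alternative added after the data had been seen, kept 46 of the 77 calls, and the fit to the 8 arrays at 10 h alone kept 27. For a gene described below and outside these 26, the single arrays whose removal ended its call are given with it. Without all arrays numbered 4 the lower genes ACAT1, ACER2, ATG9A, ATP2B4, CCL20, CSF3, DRD1, ELOVL2, IFI6, ITGB8, JAK2, MAP3K8, NCR3LG1, NFKBIB, NFKBID and SYVN1 lost their calls. So did the higher genes ATP2A3, CPT1A, DSC2, ITGB3, MMP9, MYOF, PKP3, PLAT, SLC2A3 and UHRF1 (limma adjusted p = 0.0538 to 0.447 over both groups).

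**Figure D1:**
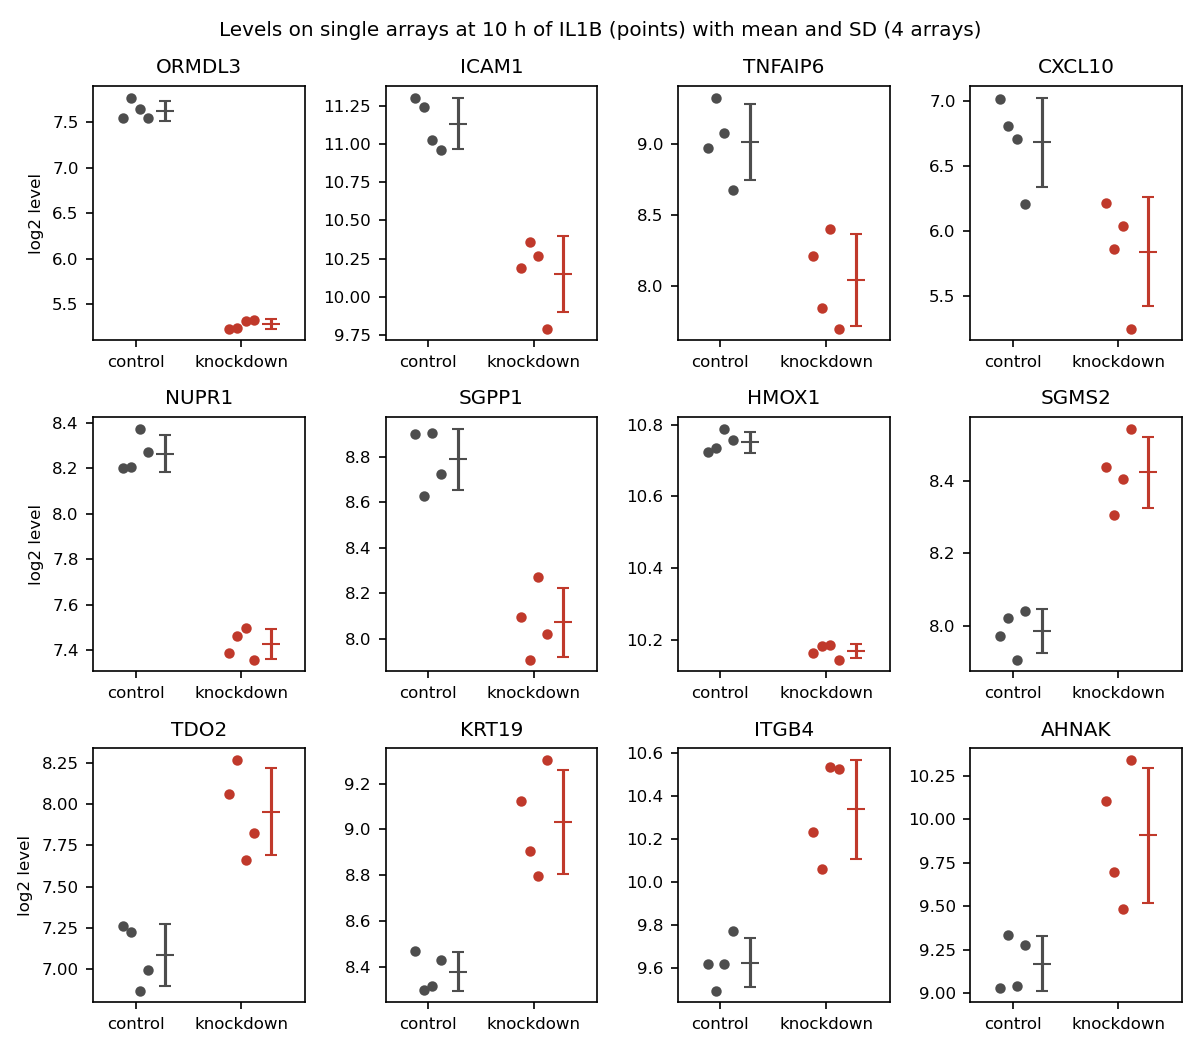
Log2 expression levels (vertical axes) of 12 genes on the single arrays at 10 h, with the 4 control arrays in grey, the 4 knockdown arrays in red and the mean with its SD beside them. ORMDL3, ICAM1, TNFAIP6, NUPR1, SGPP1 and HMOX1 are lower and SGMS2, TDO2, KRT19, ITGB4 and AHNAK higher on every knockdown array than on any control array, while the arms overlap for CXCL10.

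Adhesion and matrix genes of the inflammatory response held the largest differences after ORMDL3 among named genes. ICAM1, the receptor on epithelium for leukocyte integrins, stood at 11.30, 11.24, 11.03 and 10.96 in control replicates 1 to 4 and at 10.19, 10.36, 10.27 and 9.79 in knockdown. All knockdown arrays lay below all controls, and knockdown replicate 4 was the lowest. The difference was -0.98 ± 0.11 (limma adjusted p = 8.94e-07), or 50.6% of control. TNFAIP6, a secreted protein that binds hyaluronan, stood at 8.98, 9.33, 9.08 and 8.68 against 8.22, 7.85, 8.40 and 7.70. Its arms did not overlap either, and the difference was -0.97 ± 0.16 (adjusted p = 0.000411). In the list of adhesion, acute-phase and protease genes these 2 were lower and 2 of the 25 measured members were higher, MMP9, a matrix metalloprotease (0.43 ± 0.11), and PLAT, the tissue plasminogen activator (0.47 ± 0.13). The median of the list was -0.04. The call of MMP9 was lost without control replicate 1, 3 or 4 or knockdown replicate 1 or 4 (adjusted p = 0.062 to 0.186), and that of PLAT without control replicate 2, 3 or 4 or knockdown replicate 1, 2 or 4 (0.0813 to 0.195). Both were lost in the fit to the 8 arrays alone (0.194 and 0.154). SOD2, the mitochondrial superoxide dismutase, differed by 0.00 ± 0.06 (adjusted p = 0.997).

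The gene lists are read against all 14488 probe sets, of which 2.28% were called, 7.41% were lower and 6.22% higher at an unadjusted p under 0.05, 51.7% lay below 0 and 48.3% above, with a median of -0.005. Of 24 measured cytokine and chemokine genes 4 were called lower and 0 higher. At an unadjusted p under 0.05, 12 of the 24 were lower and 0 higher, 22 lay below 0, and the median was -0.20. CXCL10, a chemokine for T cells, stood at 7.01, 6.80, 6.71 and 6.20 in control replicates 1 to 4 and at 6.21, 5.86, 6.04 and 5.25 in knockdown, so that replicate 4 was the lowest array of both arms and control replicate 4 lay among the knockdown levels. Its difference was -0.84 ± 0.18 (adjusted p = 0.00795), lost without control replicate 1 (0.0511) or knockdown replicate 4 (0.0684). CXCL10 lay low on these arrays, whose lower quartile was 6.63 to 6.66. Every knockdown level and control replicate 4 lay below that. CCL20, which draws dendritic cells and lymphocytes, stood at 10.89, 11.14, 10.94 and 10.58 against 10.60, 10.08, 10.31 and 10.21. The difference was -0.59 ± 0.15 (adjusted p = 0.0314), lost without control replicate 1, 2 or 3 or knockdown replicate 2, 3 or 4 (0.0524 to 0.107). CSF3, the granulocyte growth factor, stood at 10.07, 10.07, 10.01 and 9.58 against 9.14, 9.65, 9.51 and 9.08, with control replicate 4 within the range of knockdown. Its difference of -0.59 ± 0.16 (adjusted p = 0.0467) was lost without control replicate 1, 2 or 3 or knockdown replicate 1 or 4 (0.0982 to 0.205) and under both other scalings of the arrays (0.0517 with medians subtracted and 0.0533 with quantile normalization).

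CSF1, the macrophage growth factor, varied little within each arm, at 10.99, 10.91, 10.95 and 10.90 in control and 10.64, 10.59, 10.66 and 10.63 in knockdown. It was lower by 0.31 without overlap (-0.31 ± 0.06, adjusted p = 0.00211), and the call held with each of the 8 arrays left out. In the fit to the 8 arrays alone the calls of all 4 cytokine genes were lost (adjusted p = 0.0838 for CSF1, 0.111 for CCL20, 0.135 for CSF3 and for CXCL10). The chemokine genes CXCL8, CCL2 and CCL5 did not pass the test. CXCL8, which attracts neutrophils, differed by -0.16 ± 0.10 (adjusted p = 0.532), CCL2, which attracts monocytes, by -0.16 ± 0.08 (0.334) and CCL5 by -0.02 ± 0.15 (0.975). IL6 differed by -0.38 ± 0.12 (0.0981), with its arms not overlapping, and the IL1B gene by -0.50 ± 0.15 (0.0768), with its arms overlapping. PTGS2, the inducible cyclooxygenase, differed by -0.05 ± 0.08 (0.857). 

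NF-kB genes showed small differences, most of them towards lower levels in knockdown. Of 30 measured subunits and feedback regulators 3 were called lower and 0 higher, against 2.28% called over all probe sets. At an unadjusted p under 0.05, 11 were lower and 1 higher (7.41% and 6.22% over all). Below 0 lay 23 (51.7% over all), and the median was -0.12. The mean level of the 30 genes was 9.32 to 9.40 in control arrays and 9.205 to 9.272 in knockdown arrays. N4BP1, a suppressor of inflammatory signalling, was lower by 0.56 (-0.56 ± 0.11, adjusted p = 0.00303), at 8.31, 8.23, 8.15 and 8.04 in knockdown against 8.87, 8.53, 8.95 and 8.62. The arms did not overlap, and the call held with each array left out but not in the fit to the 8 arrays alone (0.0646). The inhibitors NFKBID (-0.29 ± 0.07, adjusted p = 0.0237) and NFKBIB (-0.24 ± 0.06, adjusted p = 0.0224) were lower too. NFKBID was lost without control replicate 1 or 3 or knockdown replicate 2 or 4 (0.0597 to 0.147) and NFKBIB without control replicate 1, 3 or 4 or knockdown replicate 1 or 4 (0.0589 to 0.123). NFKBIA, the inhibitor that NF-kB induces in its own feedback, differed by -0.10 ± 0.06 (0.472), and TNFAIP3, a deubiquitinase of the same feedback, by -0.24 ± 0.07 (0.061). TNFAIP3 passed in 5 other fits, with the replicate block among them (0.0371 fixed and 0.0332 random), and without control replicate 3 (0.0221). Of 18 IL1 receptor and proximal signalling genes 2 were lower and 0 higher, with a median of 0.01. IRAK2, a kinase of the receptor complex, stood at 11.21, 11.25, 11.25 and 11.21 against 10.87, 10.99, 10.96 and 10.88 (-0.31 ± 0.06, adjusted p = 0.00592) and held with each array left out. MAP3K8, a kinase upstream of ERK, differed by -0.32 ± 0.09 (0.0462), lost without control replicate 1, 3 or 4 or knockdown replicate 1, 2 or 4 (0.0872 to 0.205) and with array medians subtracted (0.0549). In the fit to the 8 arrays alone the calls of NFKBID, NFKBIB, IRAK2 and MAP3K8 were lost (0.236, 0.211, 0.0908 and 0.13). Of 38 genes of the immediate-early response and of feedback on MAP kinases 0 were called in either direction (3 higher and 4 lower at an unadjusted p under 0.05), with a median of -0.02.

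Interferon-stimulated genes sit downstream of IRF and STAT factors. Of 54 measured members 3 were called lower and 0 higher, against 2.28% called over all probe sets. At an unadjusted p under 0.05, 17 were lower and 2 higher (7.41% and 6.22% over all), 42 lay below 0 (51.7% over all), and the median was -0.17. The mean level of the 54 genes was 8.09, 8.39, 8.07 and 7.81 in control replicates 1 to 4 and 8.06, 7.91, 7.86 and 7.71 in knockdown, so that the arms overlapped and replicate 4 was lowest in both. IFI6, an interferon-induced protein that restrains cell death, stood at 11.04, 11.28, 10.91 and 10.48 against 10.70, 10.56, 10.25 and 9.71. Its difference was -0.62 ± 0.17 (adjusted p = 0.0429), lost without control replicate 1, 2 or 3 or knockdown replicate 3 or 4 (0.0764 to 0.264) and with array weights (0.0624). The interferon-induced GTPases GBP4 (-0.50 ± 0.13, adjusted p = 0.0379) and GBP3 (-0.42 ± 0.10, adjusted p = 0.0249) were lower as well. Their calls were lost without control replicate 1, 2 or 3 and without knockdown replicate 3 or 4, for GBP4 also without knockdown replicate 2 and with array weights (0.0526), and for GBP3 also without knockdown replicate 1 (0.0569 to 0.206 over the single arrays). IFI44 had the lowest difference of the list, -0.74 ± 0.21, and did not pass the test (0.0506). Among 27 IRF, STAT and interferon signalling regulators JAK2, a kinase of cytokine receptors, was the 1 called (-0.48 ± 0.13, adjusted p = 0.0402), and the list median was 0.002. Its call was lost without any control array or without knockdown replicate 1 or 4 (0.0713 to 0.18). The calls of IFI6, GBP4, GBP3 and JAK2 were lost in the fit to the 8 arrays alone (0.263, 0.222, 0.137 and 0.0744). Of 8 measured MHC class I genes 0 were called (1 higher and 0 lower at an unadjusted p under 0.05).

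The promoters of ICAM1, CXCL10, IFI6 and, as the named gene whose knockdown difference changed most from 0 h, TNFRSF9, all chosen after their values were seen, are shown for the letters that NF-kB and interferon-responsive factors are known to bind. Each line gives the 250 bases before the gene's start in RefSeq (GRCh38.p14), 5′ to 3′ on the gene's own strand, with motif matches in capitals. The windows are chr19:10270870-10271119 on the plus strand for ICAM1, chr4:76023498-76023747 on the minus strand for CXCL10, chr1:27672193-27672442 on the minus strand for IFI6 and chr1:7940840-7941089 on the minus strand for TNFRSF9.
ICAM1: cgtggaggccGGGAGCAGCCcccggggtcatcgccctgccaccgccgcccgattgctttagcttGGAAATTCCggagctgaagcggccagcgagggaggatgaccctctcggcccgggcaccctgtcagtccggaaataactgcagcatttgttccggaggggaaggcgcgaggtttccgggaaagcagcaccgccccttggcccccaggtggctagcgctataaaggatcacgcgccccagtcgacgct
CXCL10: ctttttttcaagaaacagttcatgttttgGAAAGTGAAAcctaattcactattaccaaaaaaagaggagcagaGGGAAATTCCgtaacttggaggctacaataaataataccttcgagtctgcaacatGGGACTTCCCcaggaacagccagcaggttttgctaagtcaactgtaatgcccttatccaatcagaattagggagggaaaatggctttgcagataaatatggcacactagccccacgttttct
IFI6: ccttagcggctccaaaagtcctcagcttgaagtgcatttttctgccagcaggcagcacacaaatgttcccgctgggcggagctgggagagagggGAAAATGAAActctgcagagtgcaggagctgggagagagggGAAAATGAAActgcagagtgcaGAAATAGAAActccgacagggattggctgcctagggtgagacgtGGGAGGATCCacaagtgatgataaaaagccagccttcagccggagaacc
TNFRSF9: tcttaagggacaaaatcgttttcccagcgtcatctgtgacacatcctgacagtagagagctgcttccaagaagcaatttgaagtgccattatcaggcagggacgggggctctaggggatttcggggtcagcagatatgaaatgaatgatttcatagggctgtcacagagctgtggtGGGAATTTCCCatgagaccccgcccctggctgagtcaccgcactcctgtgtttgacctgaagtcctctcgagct

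Capitals mark 3 motifs searched on both strands: the core of the interferon-stimulated response element, GAAANNGAAA, a kappaB core, GGGANNNNCC, and a palindromic kappaB form, GGAANTTCC, which was added after the promoters had been seen. ICAM1 held the kappaB core 240 bases and the palindromic form 186 bases before its start. CXCL10 held 1 interferon element (221 bases before the start) and kappaB cores at 177 and 122 bases, the first overlapping a palindromic match. IFI6 held the interferon element at 156, 115 and 93 bases and a kappaB core at 49 bases before its start. In TNFRSF9 the kappaB core matched on both strands in overlapping positions, from 74 bases before the start, with the palindromic form inside it. Over windows of 300 bases, which reach 50 bases past the start, 3.57% of 35116 promoters held the interferon element, 25.6% the kappaB core and 0.965% the palindromic form. Of the 54 interferon-stimulated genes 44 were matched to a promoter, of which 68.2%, 34.1% and 4.55% held these motifs. Of the 24 cytokine and chemokine genes 17 were matched, with 11.8%, 64.7% and 41.2%. A match describes the letters of the window and is not evidence of binding in these cells.

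ORMDL3 acts in sphingolipid synthesis. Of 12 measured genes of de novo synthesis 0 were called in either direction (0 higher and 2 lower at an unadjusted p under 0.05), and the median was -0.035. With 2.28% of all probe sets called, a count of 0 among 12 is near the background. The serine palmitoyltransferase subunits SPTLC1 (-0.12 ± 0.09, adjusted p = 0.629), SPTLC2 (0.11 ± 0.08, 0.613) and SPTSSA (-0.07 ± 0.10, 0.868) and the ceramide synthases CERS2 (0.00 ± 0.05, 0.989) and CERS6 (-0.10 ± 0.06, 0.513) did not pass the test. Among 34 genes of sphingolipid turnover and sphingosine 1-phosphate, a list whose share of calls was not tested against that of synthesis, 2 were lower and 2 higher, with a median of 0.005. SGPP1, which dephosphorylates sphingosine 1-phosphate in the endoplasmic reticulum, stood at 8.90, 8.63, 8.91 and 8.73 against 8.09, 7.91, 8.27 and 8.02. Its arms did not overlap, and the difference was -0.72 ± 0.09 (adjusted p = 3.71e-06). SGMS2, which makes sphingomyelin from ceramide, stood at 7.97, 8.02, 7.91 and 8.04 against 8.44, 8.31, 8.41 and 8.54, again without overlap (0.44 ± 0.08, adjusted p = 0.00239). SMPD1, the lysosomal sphingomyelinase that releases ceramide from sphingomyelin, was higher at 8.49, 8.50, 8.35 and 8.53 against 8.19, 7.95, 7.76 and 8.22 (0.44 ± 0.10, adjusted p = 0.00933). Its call was lost without control replicate 3, the lowest control (0.35, adjusted p = 0.0747). ACER2, a ceramidase of the Golgi, was lower (-0.40 ± 0.10, adjusted p = 0.0327), lost without control replicate 1, 3 or 4 or knockdown replicate 3 or 4 (0.0741 to 0.161). In the fit to the 8 arrays alone the calls of SMPD1 and ACER2 were lost (0.124 and 0.142). SPHK1, a kinase that forms sphingosine 1-phosphate, differed by 0.18 ± 0.13 (0.581), and the inducible phosphatase SGPP2 by -0.33 ± 0.15 (0.329).

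Some stress genes were lower. NUPR1, a chromatin protein induced by many stresses, stood at 8.20, 8.21, 8.38 and 8.27 against 7.39, 7.46, 7.50 and 7.36 (-0.84 ± 0.10, adjusted p = 3.03e-06). CHAC1, an enzyme that breaks down glutathione, stood at 10.44, 10.27, 10.14 and 10.37 against 9.82, 9.85, 9.63 and 9.64 (-0.57 ± 0.12, adjusted p = 0.0069). Neither gene had overlapping arms. GDF15, a secreted stress cytokine, was lower by 0.40 (-0.40 ± 0.09, adjusted p = 0.00881), lost without knockdown replicate 4 (0.06) and in the fit to the 8 arrays alone (0.0751). These 3 were the called members of 39 measured genes of the ATF4 and amino acid response, whose median was -0.05, and ATF4 itself differed by -0.12 ± 0.17 (0.849). Of 31 genes of the unfolded protein response 1 was lower and 0 higher, with a median of -0.04, and the chaperone HSPA5 differed by 0.02 ± 0.06 (0.937). The called member was SYVN1, a ubiquitin ligase of the endoplasmic reticulum (-0.26 ± 0.07, adjusted p = 0.0391), lost without control replicate 1, 3 or 4 or knockdown replicate 1, 2 or 4 (0.0923 to 0.161), under both other scalings (0.0512 and 0.0556) and in the fit to the 8 arrays alone (0.247).

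HMOX1, which degrades heme, also varied little within each arm, at 10.72, 10.74, 10.79 and 10.76 in control and 10.16, 10.18, 10.19 and 10.14 in knockdown (-0.58 ± 0.09, adjusted p = 0.000118). BACH1, a repressor of HMOX1 and other targets of NRF2, was higher without overlap (0.39 ± 0.07, adjusted p = 0.00209), a call lost in the fit to the 8 arrays alone (0.081). They were the 2 called genes of 30 measured NRF2 targets and regulators, with a list median of 0.001. Of 26 p53 targets FAS, a death receptor, was higher at 8.32, 8.40, 8.21 and 8.31 against 7.94, 7.95, 7.94 and 7.81 (0.40 ± 0.07, adjusted p = 0.00141). TP53INP1, a nuclear protein induced by p53, was lower at 8.41, 8.64, 8.45 and 8.49 against 9.16, 8.96, 9.14 and 9.15 (-0.60 ± 0.10, adjusted p = 0.000308), and GDF15 is on this list too. The median of the p53 list was 0.11, with 7 members higher and 2 lower at an unadjusted p under 0.05. FAS was also the called member of 33 cell death and survival genes (median -0.02). Of 36 lysosome and autophagy genes 2 were lower and 0 higher (median -0.04), PLA2G15, a lysosomal phospholipase (-0.51 ± 0.08, adjusted p = 0.000417), and ATG9A, a membrane protein of autophagosome formation (-0.28 ± 0.07, adjusted p = 0.0231). ATG9A was lost without control replicate 1, 3 or 4 or knockdown replicate 1, 2 or 4 (0.0584 to 0.106) and in the fit to the 8 arrays alone (0.199).

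**Figure D2:**
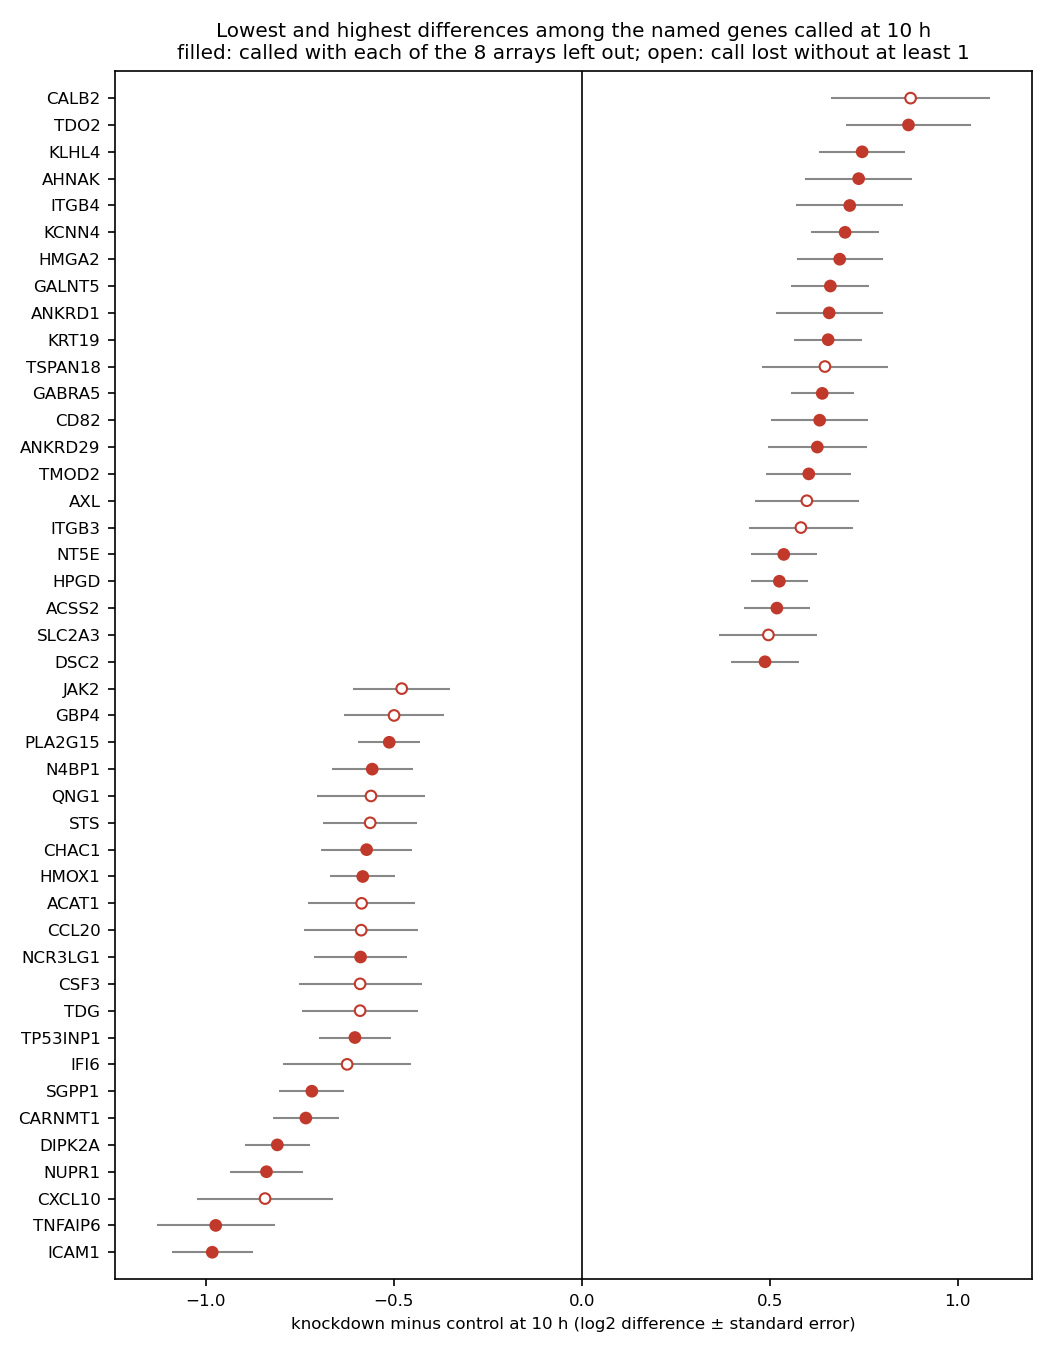
Knockdown minus control at 10 h on the log2 scale (points, horizontal axis) with limma's standard error (lines) for the 22 lowest and 22 highest named genes among those called, without ORMDL3. Filled points kept their call with each of the 8 arrays left out and open points lost it without at least 1; ICAM1 (-0.98) and TNFAIP6 (-0.97) are lowest, CALB2 and TDO2 (both 0.87) highest.

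Of 37 measured extracellular matrix, integrin and laminin genes 4 were called higher and 1 lower, against 2.28% called over all probe sets. At an unadjusted p under 0.05, 15 were higher and 1 lower (6.22% and 7.41% over all), 33 lay above 0 (48.3% over all), and the median was 0.11. ITGB4, the integrin of hemidesmosomes, stood at 9.61, 9.49, 9.62 and 9.77 in control and 10.23, 10.06, 10.53 and 10.52 in knockdown. The arms did not overlap, and the difference was 0.71 ± 0.14 (adjusted p = 0.00453). ITGA2, a collagen receptor, was higher with 12.12, 11.96, 11.95 and 12.12 against 11.72, 11.65, 11.54 and 11.62 (0.41 ± 0.07, adjusted p = 0.000688), lost in the fit to the 8 arrays alone (0.0569). ITGB3, a subunit of the vitronectin receptor, was higher by 0.58 ± 0.14 (adjusted p = 0.0181) with overlapping arms, lost without control replicate 3 or knockdown replicate 1 or 4 (0.0747 to 0.118). COL5A1, a fibrillar collagen chain, was higher by 0.41 ± 0.10 (adjusted p = 0.0278), lost without control replicate 2 or 3 or knockdown replicate 1, 2 or 4 (0.0505 to 0.125). ITGB8, an integrin subunit that activates TGF beta, was lower (-0.38 ± 0.10, adjusted p = 0.0362), lost without control replicate 1, 2 or 3 or knockdown replicate 2, 3 or 4 (0.0559 to 0.164). In the fit to the 8 arrays alone ITGB3, COL5A1 and ITGB8 were lost (0.155, 0.111 and 0.137).

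KRT19, a keratin of simple epithelia, stood at 8.47, 8.30, 8.32 and 8.43 against 9.13, 8.91, 8.79 and 9.31, with no overlap (0.66 ± 0.09, adjusted p = 4.42e-05). The desmosomal genes DSC2 (0.49 ± 0.09, adjusted p = 0.00229) and PKP3 (0.42 ± 0.08, adjusted p = 0.00384) were higher, and these 3 were the called members of 27 epithelial junction and mesenchymal genes (median 0.05). PKP3 was lost in the fit to the 8 arrays alone (0.103), and both desmosomal genes without all arrays numbered 4 (0.064 for DSC2, 0.0979 for PKP3). Of 29 genes in a list of YAP and TEAD targets that also holds these factors themselves, 4 were higher and 0 lower, and the median was 0.03. ANKRD1, a nuclear ankyrin-repeat protein, stood at 7.91, 7.64, 7.65 and 7.96 against 8.36, 8.49, 8.34 and 8.61 (0.66 ± 0.14, adjusted p = 0.00881), and NT5E, which makes adenosine outside the cell, at 9.42, 9.26, 9.33 and 9.30 against 9.80, 9.75, 9.88 and 10.02 (0.54 ± 0.09, adjusted p = 0.000435). Both were free of overlap. The receptor tyrosine kinase AXL (0.60 ± 0.14, adjusted p = 0.0137) was lost without control replicate 3 (0.0687) or knockdown replicate 4 (0.0962), and the membrane-repair protein MYOF (0.22 ± 0.06, adjusted p = 0.0425) without any single array but control replicate 4 (0.0551 to 0.206). Both were lost in the fit to the 8 arrays alone (0.104 and 0.253), and MYOF with quantile normalization (0.0619).

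Further higher genes belonged to none of these groups. AHNAK, a very large scaffold protein beneath the plasma membrane, stood at 9.03, 9.33, 9.04 and 9.28 against 10.11, 9.70, 9.49 and 10.34. The arms did not overlap although the knockdown arrays were spread (0.74 ± 0.14, adjusted p = 0.00296), and the call was lost in the fit to the 8 arrays alone (0.111). HMGA2, an architectural chromatin protein, was higher by 0.69 ± 0.11 (adjusted p = 0.000595), GALNT5, which starts mucin-type glycosylation, by 0.66 ± 0.10 (0.000294), KLHL4, a kelch-like protein, by 0.75 ± 0.11 (0.000223) and GABRA5, a subunit of the GABA receptor channel, by 0.64 ± 0.08 (1.55e-05), each without overlap. Among the lower genes outside the lists, DIPK2A stood at 8.58, 8.47, 8.40 and 8.53 against 7.85, 7.49, 7.73 and 7.67 (-0.81 ± 0.09, adjusted p = 6.04e-07). CARNMT1, which methylates carnosine, stood at 8.75, 8.82, 8.77 and 8.91 against 8.16, 8.16, 8.03 and 7.96 (-0.73 ± 0.09, adjusted p = 3.71e-06). NCR3LG1, a ligand of the natural killer receptor NKp30, was lower (-0.59 ± 0.12, adjusted p = 0.00689), and its call was lost in the fit to the 8 arrays alone (0.0924) and without all arrays numbered 4 (0.064).

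Some genes of metabolism and ion transport were called. TDO2, which opens the tryptophan ring on the way to kynurenine, stood at 7.26, 7.22, 6.87 and 6.99 against 8.06, 8.27, 7.66 and 7.83, without overlap (0.87 ± 0.17, adjusted p = 0.00296). HPGD, which inactivates prostaglandins, stood at 11.34, 11.42, 11.28 and 11.52 against 11.93, 11.85, 11.92 and 11.96 (0.53 ± 0.08, adjusted p = 9.44e-05), and with PLA2G15 it was the called pair of 16 prostaglandin and leukotriene genes (median -0.01). ACSS2, which makes acetyl-CoA from acetate, was higher (0.52 ± 0.09, adjusted p = 0.000688; lost in the fit to the 8 arrays alone, 0.077). ELOVL2, an elongase of polyunsaturated fatty acids, was lower (-0.30 ± 0.08, adjusted p = 0.0314), lost without any single array but control replicate 3 and knockdown replicate 2 (0.0511 to 0.14) and in the fit to the 8 arrays alone (0.135). They were the called members of 29 fatty acid and glycerolipid synthesis genes (median 0.025). Of 27 genes of mitochondrial fatty acid oxidation and ketone use (median 0.05), CPT1A, which loads fatty acids for import, was higher (0.34 ± 0.08, adjusted p = 0.0167). ACAT1, the mitochondrial acetyl-CoA acetyltransferase, was lower at 8.20, 8.38, 8.26 and 7.94 against 8.55, 9.18, 8.56 and 8.83 (-0.59 ± 0.14, adjusted p = 0.0222). CPT1A was lost without control replicate 3 or 4 or knockdown replicate 1 or 4 (0.0572 to 0.0951), ACAT1 without control replicate 2 or 4 or knockdown replicate 1 or 4 (0.0543 to 0.117), and both in the fit to the 8 arrays alone (0.192 and 0.13).

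The glucose transporter SLC2A3 was the called member of 25 glycolysis and glucose uptake genes (0.50 ± 0.13, adjusted p = 0.0344; median of the list 0.07), lost without control replicate 3 or 4 or knockdown replicate 1 or 4 (0.0923 to 0.178) and in the fit to the 8 arrays alone (0.18). At an unadjusted p under 0.05, 7 of the 25 were higher and 0 lower (6.22% and 7.41% over all). Above 0 lay 19 (48.3% over all). The mean level of the 25 genes was 9.99 to 10.09 in control arrays and 10.11 to 10.25 in knockdown arrays. KCNN4, a potassium channel opened by calcium, stood at 7.12, 7.39, 7.26 and 7.23 against 8.15, 7.76, 7.84 and 8.04 (0.70 ± 0.09, adjusted p = 1.48e-05). Among 20 genes of calcium stores and calcium binding 2 were higher and 2 lower (median -0.02). CALB2, a cytosolic calcium-binding protein, stood at 7.78, 7.52, 7.46 and 7.82 against 7.19, 6.39, 6.44 and 7.05 (0.87 ± 0.21, adjusted p = 0.0217). Control replicates 2 and 3 lay well below the other controls, and the call was lost without either (0.0683 and 0.105) or without knockdown replicate 1 (0.069) or 4 (0.0854). ATP2A3, a calcium pump of the endoplasmic reticulum, was higher (0.41 ± 0.09, adjusted p = 0.0109; 0.0532 without control replicate 4). TRPC1, a cation channel, was lower without overlap (-0.41 ± 0.08, adjusted p = 0.00209), and so was ATP2B4, a calcium pump of the plasma membrane, with overlap (-0.33 ± 0.09, adjusted p = 0.0405). ATP2B4 was lost without any single array but control replicate 2 (0.0534 to 0.172), and CALB2, ATP2A3 and ATP2B4 in the fit to the 8 arrays alone (0.0912, 0.0776 and 0.186). ATP2A2, the main calcium pump of the endoplasmic reticulum in most cells, differed by -0.01 ± 0.05 (0.957).

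The lists of general cell function are given beside the 2.28% called over all probe sets, and for lists of 26 to 29 genes a count of 0 is near that background. Cholesterol synthesis and uptake had 0 of 26 called (4 higher and 0 lower at an unadjusted p under 0.05) and a median of 0.095, with TM7SF2, a sterol reductase, at 0.32 ± 0.10 (adjusted p = 0.082) and HMGCS1, which forms HMG-CoA, at 0.31 ± 0.12 (0.212). Oxidative phosphorylation had 0 of 27 (0 higher and 3 lower unadjusted; median 0.01), mitosis 0 of 28 (1 and 0; 0.02), the proteasome 0 of 29 (0 and 2; -0.001) and small nucleolar RNAs 0 of 115 (0 and 2; -0.01). Of 42 DNA replication genes UHRF1, which maintains DNA methylation, was higher (0.39 ± 0.10, adjusted p = 0.0386; list median 0.03), lost without control replicate 1, 2 or 3 or knockdown replicate 1, 3 or 4 (0.0622 to 0.174) and in the fit to the 8 arrays alone (0.13). Of 24 measured neighbours of ORMDL3 on its chromosome arm CSF3 was the called one (median -0.06). GSDMB, which lies close to ORMDL3, was not analysed here.

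Histone genes that are expressed during DNA replication had a median of -0.18 over 49 measured members, of which 43 lay below 0. H3C11 was the called one (-0.39 ± 0.08, adjusted p = 0.00453), at 11.30, 11.12, 11.47 and 11.28 against 10.92, 10.85, 10.87 and 10.97, and its call was lost in the fit to the 8 arrays alone (0.0924). At an unadjusted p under 0.05, 19 members were lower and 0 higher, against 7.41% and 6.22% of all probe sets, of which 51.7% lay below 0. The mean level of the 49 genes was 8.25 to 8.39 in control arrays and 8.10 to 8.18 in knockdown arrays. Most of these genes lie in clusters of near-identical copies, so the signal of a probe set cannot be given to a single gene with certainty.

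Markers of the cell line and of other cell types were compared in the same way. Of 27 lung epithelial and A549 markers 12 were measured, KRT19 was the called one, and their mean level was 9.36 to 9.47 in control and 9.47 to 9.54 in knockdown. Of 16 leukocyte markers 5 were measured, with mean levels of 7.30 to 7.50 and 7.44 to 7.55. ITGAX, an integrin of myeloid cells, was the called one, at 6.80, 6.87, 6.90 and 7.18 against 6.68, 6.31, 6.37 and 6.49 (0.47 ± 0.09, adjusted p = 0.00296; 0.108 in the fit to the 8 arrays alone). Of 15 fibroblast and endothelial markers 4 were measured and 0 called (1 higher at an unadjusted p under 0.05), with mean levels of 6.89 to 7.17 and 6.97 to 7.06. The part of these shifts in the differences above was not tested.

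**Figure D3:**
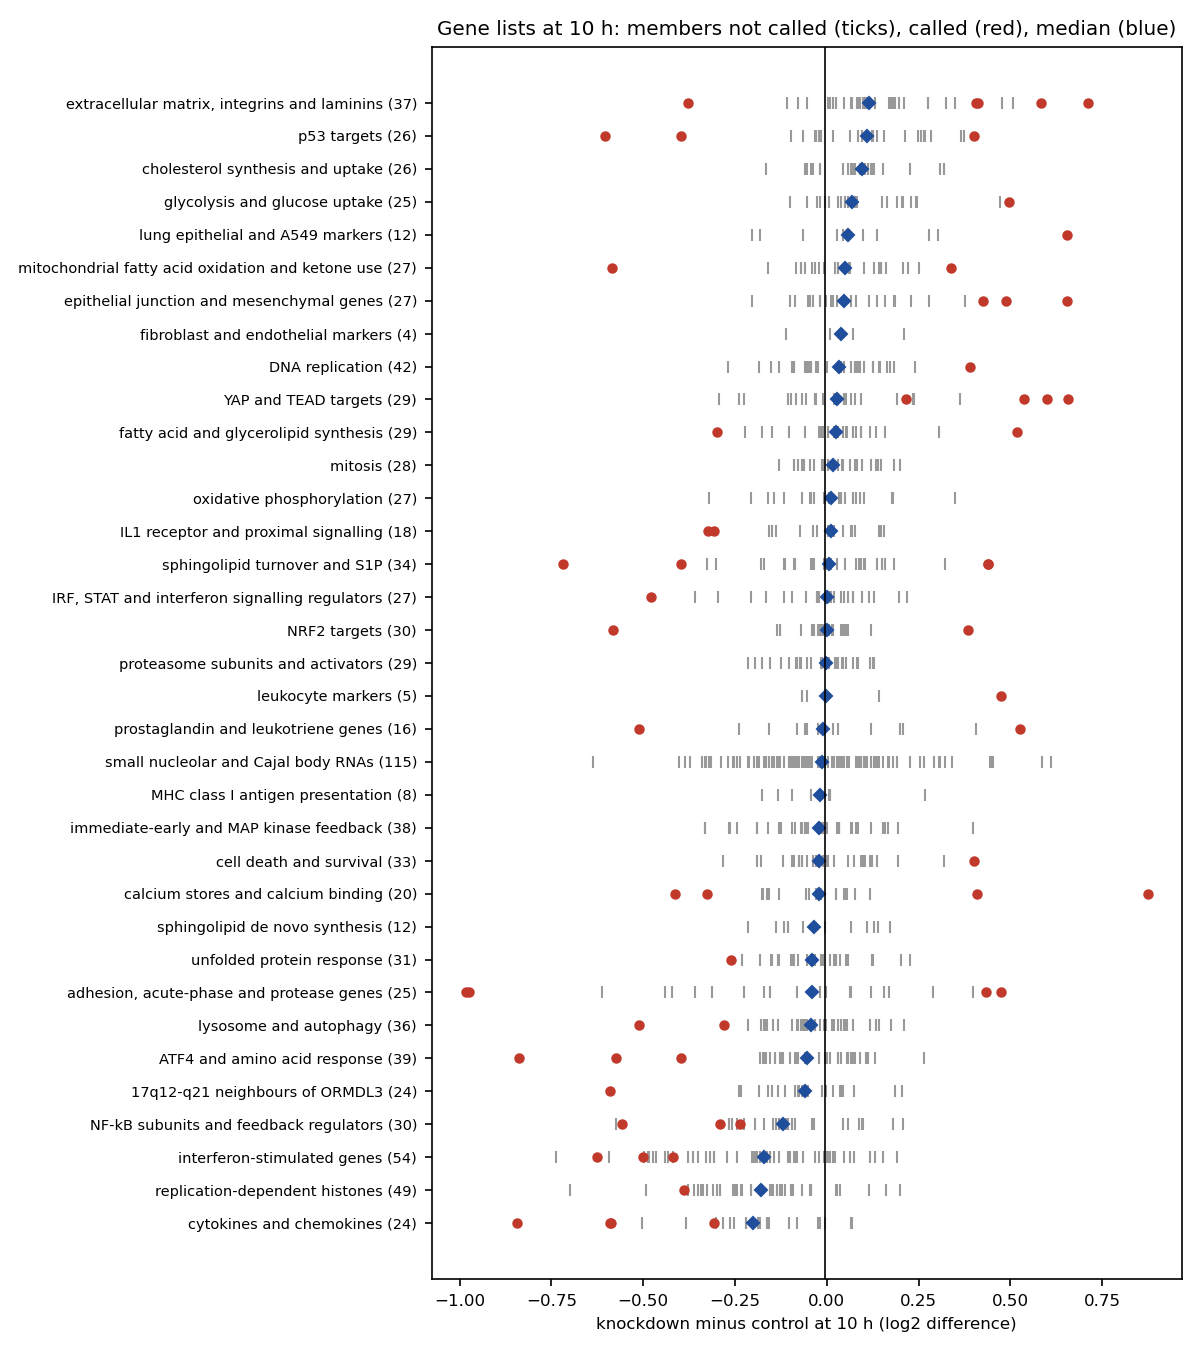
Knockdown minus control at 10 h on the log2 scale for the measured members of 35 gene lists (number measured in brackets), with members that were not called as grey ticks, called members as red points, each list's median as a blue diamond and the median of all probe sets as the vertical line. Cytokine (-0.20), histone (-0.18) and interferon-stimulated genes (-0.17) have the lowest medians and matrix and integrin genes (0.11) the highest.

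The difference at 10 h was set beside those at the other hours, which share no array with it. All hours share a common estimate of the spread of each probe set, so calls at several hours are not independent. Knockdown called 480 probe sets at 0 h (3.31%), 896 at 2 h (6.18%), 267 at 4 h (1.84%) and 417 at 8 h (2.88%). Of the 330 called at 10 h, 120, 119, 113 and 135 were called in the same direction at 0, 2, 4 and 8 h, which is 36.4%, 36.1%, 34.2% and 40.9% of the 10 h calls and 25%, 13.3%, 42.3% and 32.4% of the calls at those hours. The same sign was seen for 307, 274, 314 and 319 of them, and 53 were called in 1 direction at all 5 hours. Among the 53 were ORMDL3, NUPR1, DIPK2A, CARNMT1, SGPP1, HMOX1, ACAT1, PLA2G15 and TRPC1 on the lower side and KLHL4, KCNN4, HMGA2, GALNT5, ANKRD1, KRT19, GABRA5, NT5E, DSC2, ITGA2 and ITGAX on the higher. SGPP1 differed by -0.80, -0.83, -0.79 and -0.58 and KRT19 by 0.53, 0.61, 0.52 and 0.68 at 0, 2, 4 and 8 h. Another 120 were called at 10 h and at no earlier hour in the same direction, among them IFI6, CSF3, N4BP1 and PKP3. ATP2B4, also among the 120, was called higher in knockdown at 2 h (0.36, limma adjusted p = 0.0125). DRD1 (0.41, 0.0407) and RHCG (0.32, 0.0423) were called higher at 0 h. A call at a single hour does not show that the difference itself changed.

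A test of that change against 0 h called 12 probe sets (0.0828%), all with a lower difference at 10 h, and 869 had an unadjusted p under 0.05. Of these, 11 had 1 gene symbol: ICAM1 and SLC39A8 passed the knockdown test at 10 h and not at 0 h, DRD1 and RHCG were higher in knockdown at 0 h and lower at 10 h, and the other 7 were higher at 0 h and did not pass at 10 h. ICAM1 at 0 h stood at 7.02, 6.62, 6.84 and 6.72 in control and 6.69, 6.69 and 6.58 in knockdown, and the change in difference was -0.83 ± 0.16 (adjusted p = 0.0172). The mean of ICAM1 in control and knockdown was 13.10 against 13.06 at 2 h, 13.02 against 12.70 at 4 h and 11.65 against 10.51 at 8 h, and the knockdown difference passed the test at 8 h (adjusted p = 1.45e-07) but not at 2 h (0.852) or 4 h (0.142). TNFRSF9, a costimulatory receptor, was among the 7. At 0 h it stood at 6.05, 6.00, 6.00 and 5.96 in control and at 7.51, 7.06 and 7.76 in knockdown, far apart, and at 10 h at 10.18, 10.39, 10.03 and 9.96 against 10.59, 10.38, 10.32 and 10.51, overlapping. Its knockdown difference went from 1.44 to 0.31, a change of -1.13 ± 0.16 (adjusted p = 0.000319).

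EBI3, a cytokine subunit, stood at 6.34, 6.14, 6.36 and 6.38 against 7.15, 7.29 and 7.22 at 0 h, while at 10 h its difference was 0.07 ± 0.09 (change -0.85 ± 0.13, adjusted p = 0.000876). NFKB2, an NF-kB subunit, went from 0.55 at 0 h to -0.22 at 10 h (change -0.78 ± 0.12, adjusted p = 0.000876). IL6 went from 0.53 to -0.38 (change -0.92 ± 0.18, adjusted p = 0.0201), and at 0 h knockdown replicate 1 stood at 6.48, above the other knockdown arrays with 5.74 and 5.86. In untreated control the means of IL6 (5.49), TNFRSF9 (6.005) and EBI3 (6.30) lay below the lower quartile of the arrays (6.52 to 6.70). That of ICAM1 (6.80) lay just above it. For these genes the differences at 0 h and 10 h thus come from unlike parts of the range of levels. TNFAIP3 went from 0.33 to -0.24, the dopamine receptor DRD1 from 0.41 to -0.43, the ammonium transporter RHCG from 0.32 to -0.33 and the zinc importer SLC39A8 from 0.17 to -0.27. The carbonic anhydrase relative CA8 went from 0.50 to -0.09 and ACSL4, which activates arachidonic acid, from 0.39 to -0.06. The 10 h difference of DRD1 lost its call without control replicate 1 or 4 or knockdown replicate 2 or 4 (0.0592 to 0.109), that of RHCG without control replicate 1 or 3 or knockdown replicate 1, 2 or 3 (0.0676 to 0.119), and both in the fit to the 8 arrays alone (0.117 and 0.0957). That of SLC39A8 was lost without control replicate 1 (0.0707) or knockdown replicate 2 (0.0557) or 4 (0.0934). With array weights the 10 h differences of TNFRSF9 (0.0434) and NFKB2 (0.0355) passed, and with a fixed replicate block that of NFKB2 (0.0415). For the change from 0 h, the calls of TNFRSF9, EBI3 and NFKB2 held with each array of the 4 groups left out.

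The other 8 named calls of this contrast were lost without some arrays. ICAM1 was lost without control 0 h replicate 2, control 10 h replicate 1 or 2, knockdown 0 h replicate 1 or 2 or knockdown 10 h replicate 4 (adjusted p = 0.0509 to 0.0893). IL6 was lost without control 0 h replicate 2, control 10 h replicate 1 or 2, knockdown 0 h replicate 1 or knockdown 10 h replicate 3 or 4 (0.0515 to 0.119). DRD1 and RHCG were lost without control 0 h replicate 2, control 10 h replicate 1 or knockdown 0 h replicate 1 (0.0537 to 0.104), and TNFAIP3 without control 10 h replicate 1 or knockdown 0 h replicate 1 or 4 (0.0549 to 0.0769). ACSL4 was lost without control 0 h replicate 2 or 3, control 10 h replicate 2, knockdown 0 h replicate 1 or knockdown 10 h replicate 1 or 4 (0.0524 to 0.107). CA8 was lost without any single array but control 0 h replicate 4, control 10 h replicate 2 and knockdown 10 h replicates 2 and 3 (0.0571 to 0.159), and SLC39A8 without any but control 0 h replicates 1 and 4, control 10 h replicate 4 and knockdown 10 h replicate 3 (0.052 to 0.159). The count was 5 without control 0 h replicate 2, 5 without control 10 h replicate 1, 4 without knockdown 0 h replicate 1, 7 without knockdown 10 h replicate 4 and 19 without control 0 h replicate 4. In the fit to the arrays at 0 and 10 h alone it was 0.

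Against 8 h no probe set had a different knockdown effect at 10 h by limma (0%, smallest adjusted p = 0.91, 706 at an unadjusted p under 0.05), and against the mean of the other 4 hours the count was 0 as well (0%, smallest adjusted p = 0.429, 998 unadjusted). ICAM1 differed by -1.15 at 8 h and -0.98 at 10 h, TNFAIP6 by -1.15 and -0.97, and CXCL10 by -1.15 and -0.84. The interferon-stimulated list had medians of 0.065, 0.069, -0.005, -0.305 and -0.172 at 0, 2, 4, 8 and 10 h, and the cytokine list medians of -0.001, 0.037, -0.224, -0.222 and -0.202, with no test made of either. The histone list went from 0.01 at 0 h to -0.18 at 10 h, and that of small nucleolar RNAs from 0.34 to -0.01. The matrix, integrin and laminin list had medians of 0.18, 0.166, 0.146, 0.146 and 0.114 at 0, 2, 4, 8 and 10 h, so it was lowest at 10 h. These changes of lists were not tested.

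**Figure D4:**
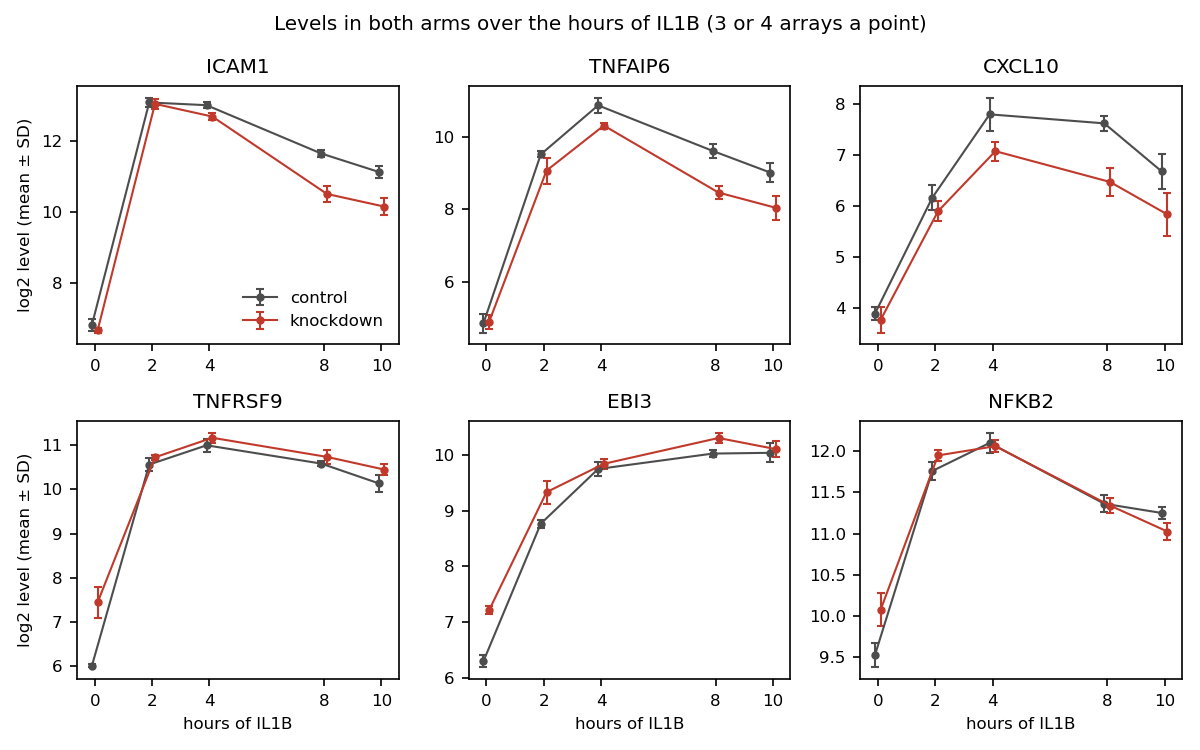
Mean log2 level with its SD (vertical axes) of 6 genes over the hours of IL1B (horizontal axis) in control arrays (grey) and knockdown arrays (red), with 3 or 4 arrays a point. ICAM1, TNFAIP6 and CXCL10 have no called difference at 0 h and are lower in knockdown at 8 and 10 h, whereas TNFRSF9, EBI3 and NFKB2 start higher in knockdown at 0 h and have no called difference at 10 h.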

How the data were processed

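Expression was measured in A549 cells on Affymetrix Gene ST arrays. The authors deposited log2 expression values of 14488 probe sets on 38 arrays, made with RMA in Affymetrix Power Tools and analysed with limma 3.22.7 and the hg19 build, per the submitters' processing notes. The sources used here give neither how these probe sets were chosen from the array nor signal over background, so the number of arrays limits the precision. RMA puts all arrays on 1 distribution, so a shift of all transcripts together would not show.

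Probe sets were named from the platform annotation, with symbols updated through Entrez identifiers (12121 matched): 12132 had 1 symbol, 628 several and 1728 none. A linear model with 10 groups (28 residual degrees of freedom) was fitted to all arrays with limma 3.58.1 in R 4.3.3, with eBayes and Benjamini-Hochberg adjustment over all 14488, and was tested on simulated data. Contrasts were knockdown minus control at each hour and the 10 h difference minus that at 0 h, at 8 h and over the mean of the other 4 hours. ± marks limma's standard error unless SD is written. ORMDL3 was also tested by an exact permutation test. Same-numbered arrays at 10 h correlated in their deviations at -0.059, 0.152, 0.167 and 0.221 for numbers 1, 2, 3 and 4. The highest correlation with another number was 0.114, 0.332, 0.087 and 0.015. Numbers 3 and 4 thus correlated most with their own number, and 1 and 2 did not. The main fit did not treat the numbers as pairs, and a random replicate block had a correlation of 0.14.

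Members and lists were chosen with earlier results of these data known. Named were the ORMDL genes, the 15 highest and 15 lowest called probe sets with 1 symbol and no overlap, up to 6 called members of each of 35 gene lists, the leading genes of the contrasts between hours and a set of known inflammatory, stress-response and sphingolipid genes. Where a gene had several probe sets, the one with the highest mean level stood for it. Alternatives were a 0.01 threshold, the compared groups alone, eBayes with trend and robust options, quantile normalization, subtraction of array medians, removal of dim probe sets, array weights, a replicate block and leaving out single arrays. Promoters were RefSeq sequences of GRCh38.p14, from a table of 35116 windows. Collections at 6 and 24 h that the protocol names were not analysed here.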

Additional observations from a re-analysis of the deposited data

Results flagged for a closer look

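At 10 h the level of a gene on 1 array stood apart from the other 3 of its arm in 4 of 86 groups tested over 43 genes, where chance gives about 4.3 (1 in 20). ORMDL1 was low in control replicate 1, at 8.408 against 8.548 to 8.577. CSF3 was low in control replicate 4, at 9.58 against 10.012 to 10.07, and its arms overlapped through that array. GDF15 was high in control replicate 2, at 12.941 against 12.799 to 12.821, and TP53INP1 was low in the same array, at 8.957 against 9.145 to 9.164.

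The knockdown difference was lower at 10 h than at 0 h, by the test of the change itself, for 12 probe sets. The change was -1.127 for TNFRSF9, -0.918 for IL6, -0.851 for EBI3, -0.835 for DRD1, -0.832 for ICAM1 and -0.775 for NFKB2. It was -0.775 for a probe set without a gene symbol, -0.654 for RHCG, -0.582 for CA8, -0.574 for TNFAIP3, -0.45 for ACSL4 and -0.447 for SLC39A8. No untreated array at 10 h is among the samples, so an effect of IL1B and one of time cannot be told apart.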

How the results depend on the processing

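The count of 330 calls at 10 h became 102 at an adjusted p under 0.01, 55 in the fit to the 8 arrays alone, 659 with array weights, 670 with the replicate block fixed, 574 with the replicate block random, 128 without all arrays numbered 4, and 134 to 361 with single arrays left out. In the same order the count of 12 for the change from 0 h became 4, 0, 46, 38, 28, 6 and 4 to 19. The count of 0 against the mean of the other hours became 20 with array weights, 4 with the block fixed, 1 with it random and 0 to 1 with single arrays left out, and the count of 0 against 8 h was 0 under each of them. The other alternatives gave counts within 1.5 times: 290 to 363 at 10 h and 9 to 18 for the change from 0 h. ORMDL3 differed by -2.38 to -2.30 with single arrays left out and by -2.36 with quantile normalization. Among the 77 named calls at 10 h no difference changed sign, and sign changes were not counted for the named genes without a call. Of the 33 named genes without a call at 10 h, 3 gained one with the block fixed (EBF1, NFKB2 and TNFAIP3), 2 with it random (EBF1 and TNFAIP3) and 5 with array weights (EBF1, NFKB2, SYT11, TNFRSF9 and ZNRD2). Of the 77 named calls at 10 h, 77 were kept with either replicate block, 77 with the trend and robust options, 75 with array weights, 74 with each other scaling, 51 of 51 without dim probe sets, 43 at 0.01 and 40 with each of the 8 arrays left out in turn. The block is a set of numbers and not a known pairing: arrays 1 and 2 correlated more with another number, and arrays 3 and 4 most with their own. The compared-groups fit against the mean of the other hours equals the fit to all arrays and was not run separately.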

Other observations

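Other called genes, chosen after their values were seen, kept their call with each of the 8 arrays at 10 h left out and had arms without overlap. Whether they kept it in the fit to the 8 arrays alone is not given here. Higher in knockdown were P2RY2, a receptor for extracellular nucleotides (0.56 ± 0.09, limma adjusted p = 0.000417), EEA1, a tether of early endosomes (0.56 ± 0.10, 0.000759), TES, a protein of focal adhesions (0.56 ± 0.08, 7.37e-05), and FSCN1, which bundles actin (0.39 ± 0.07, 0.00292). DKK1, a secreted inhibitor of Wnt signalling, was higher by 0.25 ± 0.05 (0.00714).

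Lower were SSR1, a subunit of the translocon-associated complex (-0.45 ± 0.07, limma adjusted p = 0.000113), TMEM41A (-0.48 ± 0.07, 8.94e-05) and SEC23A, a coat protein of transport vesicles (-0.31 ± 0.06, 0.00675). GCH1, the first enzyme of tetrahydrobiopterin synthesis, was lower by 0.53 (-0.53 ± 0.11, 0.00466), DCP1A, a factor of mRNA decapping, by 0.51 (-0.51 ± 0.08, 0.000411), and SULT2B1, a sulfotransferase of cholesterol, by 0.50 (-0.50 ± 0.10, 0.00592). P2RY2, EEA1, TES, SSR1, TMEM41A, SEC23A and DCP1A were called in the same direction at all 5 hours, and so also in untreated cells.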
